A study of Homo sapiens with 10 samples.

Results

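The genes described here encode integrin chains and laminin-332 chains of basal epithelial cells: ITGA2, ITGA3, ITGA6, ITGAV, ITGB1, ITGB4, ITGB6, LAMA3 and LAMB3. They were chosen by gene symbol from the 23426 genes listed for each sample, and all 9 were found. Their messenger RNA levels were taken from RNA sequencing of MDA-MB-468, an established line of triple-negative breast cancer with a basal-like profile, and ZR75-1, an established luminal line. Each line received the solvent DMSO (2 samples) or PKC412 (3 samples) at 1 μM for 6 h, giving 4 groups and 10 samples. This dose is that of the labels and the methods, while some legends of the study name a lower one. PKC412, or midostaurin, is a staurosporine derivative that inhibits several protein kinases. The labels name no genetic change in any group, and each line stands alone for its subtype. The methods describe triplicates, and 2 DMSO samples per line were analysed here. Nothing in the labels says that replicates were separate cultures, so p-values measure the spread between these samples, which may be technical. Levels are FPKM, fragment counts scaled by transcript length and by the total of mapped fragments. This scale is made for comparisons between genes, but AT-rich genes shifted between libraries far more than GC-rich ones, so levels of genes that differ in GC content are only roughly comparable.

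Integrins are receptors made of 1 alpha and 1 beta chain that bind the extracellular matrix outside the cell and the cytoskeleton inside it. Basal epithelial cells rest on a basement membrane rich in laminin-332, a trimer that holds the chains encoded by LAMA3 and LAMB3. The α6β4 integrin, from ITGA6 and ITGB4, binds laminin-332 in hemidesmosomes, which anchor keratin filaments. The β1 chain, from ITGB1, pairs with many alpha chains, among them the collagen receptor chain α2 from ITGA2 and the laminin receptor chain α3 from ITGA3. The αv chain, from ITGAV, pairs with β6, from ITGB6, in an epithelial receptor that activates latent TGF-β.

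The genes fall into classes of base composition, which is given here because the deviations of a library from the others of its line ran with the GC content of the genes. The central 120 coding bases of 5 transcripts (GENCODE 29, GRCh38, given 5′ to 3′ on the coding strand, with ITGB6 and LAMB3 on the minus strand of the genome and the others on the plus strand) are shown to make this visible, with G and C in capitals.
ITGB6: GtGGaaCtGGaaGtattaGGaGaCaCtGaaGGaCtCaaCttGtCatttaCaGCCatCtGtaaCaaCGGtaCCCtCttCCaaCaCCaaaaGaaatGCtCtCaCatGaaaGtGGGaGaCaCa
ITGAV: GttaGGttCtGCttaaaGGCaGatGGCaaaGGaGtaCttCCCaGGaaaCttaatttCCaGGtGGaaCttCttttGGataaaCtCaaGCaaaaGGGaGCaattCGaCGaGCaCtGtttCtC
ITGB4: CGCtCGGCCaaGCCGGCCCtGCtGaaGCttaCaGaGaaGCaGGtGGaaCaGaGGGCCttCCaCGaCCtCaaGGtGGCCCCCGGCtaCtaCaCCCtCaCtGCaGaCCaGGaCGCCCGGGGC
ITGA3: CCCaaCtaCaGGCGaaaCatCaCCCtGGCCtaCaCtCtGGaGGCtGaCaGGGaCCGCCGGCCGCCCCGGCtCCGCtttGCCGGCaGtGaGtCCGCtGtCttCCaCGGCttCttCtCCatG
LAMB3: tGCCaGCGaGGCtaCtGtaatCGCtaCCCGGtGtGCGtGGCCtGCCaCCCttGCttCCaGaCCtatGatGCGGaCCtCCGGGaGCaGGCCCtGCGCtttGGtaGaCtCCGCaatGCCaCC
G and C made up 44.2% of the stretch shown for ITGB6 and 43.3% for ITGAV. The shares were 66.7% for ITGB4, 65.0% for ITGA3 and 63.3% for LAMB3. At the third position of codons, where most base changes leave the amino acid as it is, ITGB6 held 47.8% G or C and ITGB4 82.8%. Over the longest coding transcript, UTRs included, GC content was 38.3% for ITGAV, 39.98% for ITGB1, 40.1% for ITGB6 and 42.9% for ITGA6. LAMA3 stood at 50.7%, LAMB3 at 58.9%, ITGA3 at 60.9% and ITGB4 at 63.7%. The first 4 are called AT-rich below, and LAMB3, ITGA3 and ITGB4 GC-rich. This grouping was made after the values had been seen.

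The identity of the lines matched the labels by other genes. All 7 basal markers were higher in every MDA-MB-468 sample than in any ZR75-1 sample, with a summed level of 2456 to 2691 FPKM against 0.775 to 2.21 FPKM, and 7 of 8 luminal markers were higher in every ZR75-1 sample. Of 9 markers of other cell types, 6 in MDA-MB-468 and 7 in ZR75-1 stayed below 0.1 FPKM in every sample, with summed levels over the 9 of 14.3 to 24.8 FPKM and 3.29 to 11.7 FPKM. Most of the sum in MDA-MB-468 was CD14, a monocyte marker, at 11.7 to 23.3 FPKM. In ZR75-1 most of it was COL1A1, a collagen gene, at 2.25 to 11.1 FPKM. The part of either gene in the results was not tested. The GC slope of a library, the trend of its log2 deviations from the mean of the line's libraries per 10 percentage points of transcript GC, ran from -0.29 to 0.37 in MDA-MB-468 and from -0.36 to 0.34 in ZR75-1. It was above 0.3 in 3 libraries, DMSO replicate 1 of each line and PKC412 replicate 2 of ZR75-1. In MDA-MB-468 both DMSO libraries had a higher slope than all 3 PKC412 libraries, so slope and agent cannot be told apart there. No read counts were available, so the depth of each library is unknown.

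ITGA3, on chromosome 17 (GRCh38, 50055968 to 50090481), was higher in MDA-MB-468 than in ZR75-1. It measured 24.9 and 24.5 FPKM in MDA-MB-468 with DMSO, against 8.28 and 8.86 FPKM in ZR75-1 with DMSO. With PKC412 it measured 24.2, 21.0 and 23.9 FPKM in MDA-MB-468 and 11.4, 15.4 and 14.7 FPKM in ZR75-1. Every MDA-MB-468 sample lay above every ZR75-1 sample. Between the lines in DMSO the difference was 1.43 on the log2(FPKM + 1) scale (SE 0.16, limma adjusted p = 0.000161), a 2.88-fold ratio of means. In PKC412 it was 0.71 (SE 0.13, limma adjusted p = 0.00181). ITGA3 was called in both comparisons under each of the 19 alternative settings tried for either.

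ITGA6 encodes the alpha partner of β4 in hemidesmosomes and lies on chromosome 2 (172427354 to 172506282). It measured 0.909 and 1.51 FPKM in MDA-MB-468 with DMSO and 6.85, 2.48 and 3.90 FPKM with PKC412. In ZR75-1 it measured 0.5 and 1.28 FPKM with DMSO and 1.25, 0.466 and 2.83 FPKM with PKC412. The lines overlapped under both agents, through PKC412 replicate 2 of MDA-MB-468 and PKC412 replicate 3 of ZR75-1 in the treated samples. The log2 difference between the lines was 0.24 in DMSO (SE 0.50, 95% interval -0.91 to 1.40, limma adjusted p = 0.748). In PKC412 it was 1.13 (SE 0.41, limma adjusted p = 0.0429), higher in MDA-MB-468. That call was kept in 7 of 19 alternatives, with adjusted p between 0.00225 and 0.172.

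ITGAV, also on chromosome 2 (186590065 to 186680901), encodes the alpha partner of β6. Its levels in MDA-MB-468 were 0.488 and 1.30 FPKM with DMSO and 6.48, 2.08 and 2.87 FPKM with PKC412. Its levels in ZR75-1 were 0.347 and 1.28 FPKM with DMSO and 1.10, 0.335 and 1.98 FPKM with PKC412. The DMSO samples of the lines overlapped and the PKC412 samples did not, with 2.08 FPKM as the lowest in MDA-MB-468 and 1.98 FPKM as the highest in ZR75-1. The log2 difference was 0.079 in DMSO (SE 0.52, limma adjusted p = 0.932) and 1.14 in PKC412 (SE 0.42, limma adjusted p = 0.0463). The second was called in 5 of 19 alternatives, with adjusted p between 0.00294 and 0.159. The calls of ITGA6 and ITGAV in PKC412 were each lost without DMSO replicate 1 or 2 or PKC412 replicate 1 or 3 of MDA-MB-468, and without DMSO replicate 1 or 2 or PKC412 replicate 1 or 2 of ZR75-1.

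ITGA2, on chromosome 5 (52989326 to 53094779), was listed near 0 in all samples of both lines. Its value was 0.00014 FPKM in PKC412 replicate 1 of MDA-MB-468 and at most 2.91e-13 FPKM in the other 9. A value this low need not mean that the gene is silent. Of 20 genes that every cell uses, 1 was listed below 1e-6 FPKM in at least 1 sample and 0 in every sample. HSP90AB1, a chaperone gene that every cell uses, was listed below 0.01 FPKM in 9 of 10 samples, with 5.30 FPKM in the other one. ITGA2 was therefore given no fold change and was not tested, which left 8 of 9 members in the model.

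ITGB1, on chromosome 10 (32900319 to 33005792), had the largest SD within groups of the 9 genes, in FPKM. It measured 4.37 and 8.78 FPKM in MDA-MB-468 with DMSO and 35.1, 13.1 and 22.5 FPKM with PKC412. ZR75-1 gave 2.74 and 13.6 FPKM with DMSO and 13.2, 5.65 and 30.7 FPKM with PKC412. The lines overlapped under both agents. Their log2 difference was -0.027 in DMSO (SE 0.85, 95% interval -1.99 to 1.93) and 0.67 in PKC412 (SE 0.69, 95% interval -0.93 to 2.27), with limma adjusted p of 0.994 and 0.434. The width of these intervals leaves differences of several fold undetectable in either direction.

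ITGB4, which marks hemidesmosomes, had nearly equal means in both lines with DMSO. Its levels on chromosome 17 (75721328 to 75757818) were 21.1 and 17.7 FPKM with DMSO and 20.0, 16.4 and 18.2 FPKM with PKC412 in MDA-MB-468. The luminal line ZR75-1 held 20.7 and 18.4 FPKM with DMSO and 16.5, 25.4 and 22.3 FPKM with PKC412. The samples overlapped throughout. The log2 difference between the lines was -0.015 in DMSO (SE 0.20, 95% interval -0.48 to 0.45, limma adjusted p = 0.973) and -0.20 in PKC412 (SE 0.17, limma adjusted p = 0.319). ITGB4 overlaps GALK1 on the opposite strand, which reached 59.6 FPKM, and whether strand was used in counting is not given in the sources used here, so reads of this pair may not be fully separated.

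ITGB6, on chromosome 2 (160099666 to 160200313), measured 0.341 and 1.05 FPKM in MDA-MB-468 with DMSO. With PKC412 the same line gave 10.7, 2.22 and 4.85 FPKM. ZR75-1 gave 0.185 and 0.797 FPKM with DMSO and 0.390, 0.395 and 1.98 FPKM with PKC412. The DMSO samples of the lines overlapped, and in PKC412 every MDA-MB-468 sample lay above every ZR75-1 sample. The log2 difference between the lines was 0.18 in DMSO (SE 0.61, limma adjusted p = 0.852) and 1.75 in PKC412 (SE 0.50, limma adjusted p = 0.0164), a 6.42-fold ratio of means. The PKC412 call was kept in 16 of 19 alternatives, with adjusted p from 0.00263 to 0.0939. It was lost without PKC412 replicate 1 or 2 of ZR75-1 and without the 3 libraries of high GC slope.

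Both laminin-332 chains among the members had lower means in the basal-like line than in the luminal line. LAMB3, the β3 chain on chromosome 1 (209614870 to 209652466), measured 28.3 and 26.4 FPKM in MDA-MB-468 with DMSO and 37.2 and 35.4 FPKM in ZR75-1 with DMSO. With PKC412 the levels were 25.9, 26.8 and 25.2 FPKM in MDA-MB-468 and 32.9, 43.2 and 37.7 FPKM in ZR75-1. All MDA-MB-468 samples lay below all ZR75-1 samples. The log2 difference was -0.39 in DMSO (SE 0.13, limma adjusted p = 0.0440), and -0.52 in PKC412 (SE 0.11, limma adjusted p = 0.00385). The DMSO call was kept in 8 of 19 alternatives (adjusted p 0.0122 to 0.189) and was lost without any 1 library of the 10 other than PKC412 replicates 1 and 2 of ZR75-1. The PKC412 call was kept in all 19, with adjusted p from 0.00242 to 0.0184.

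LAMA3, the α3 chain on chromosome 18 (23689443 to 23956222), had a far lower FPKM than LAMB3. It measured 0.385 and 0.463 FPKM in MDA-MB-468 with DMSO and 0.775 and 1.99 FPKM in ZR75-1 with DMSO. With PKC412 it measured 0.850, 0.430 and 0.783 FPKM in MDA-MB-468 and 2.09, 0.910 and 3.94 FPKM in ZR75-1. Under each agent every MDA-MB-468 sample lay below every ZR75-1 sample. The log2 differences of -0.70 in DMSO (SE 0.41, limma adjusted p = 0.221) and -0.88 in PKC412 (SE 0.34, limma adjusted p = 0.0537) missed the threshold. Over the 19 alternatives LAMA3 was called in none in DMSO (adjusted p 0.0601 to 0.65) and in 6 in PKC412 (adjusted p 0.00815 to 0.141), each time lower in MDA-MB-468. Of these, 2 left out 1 library of ZR75-1, DMSO replicate 2 or PKC412 replicate 2.

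**Figure D1:**
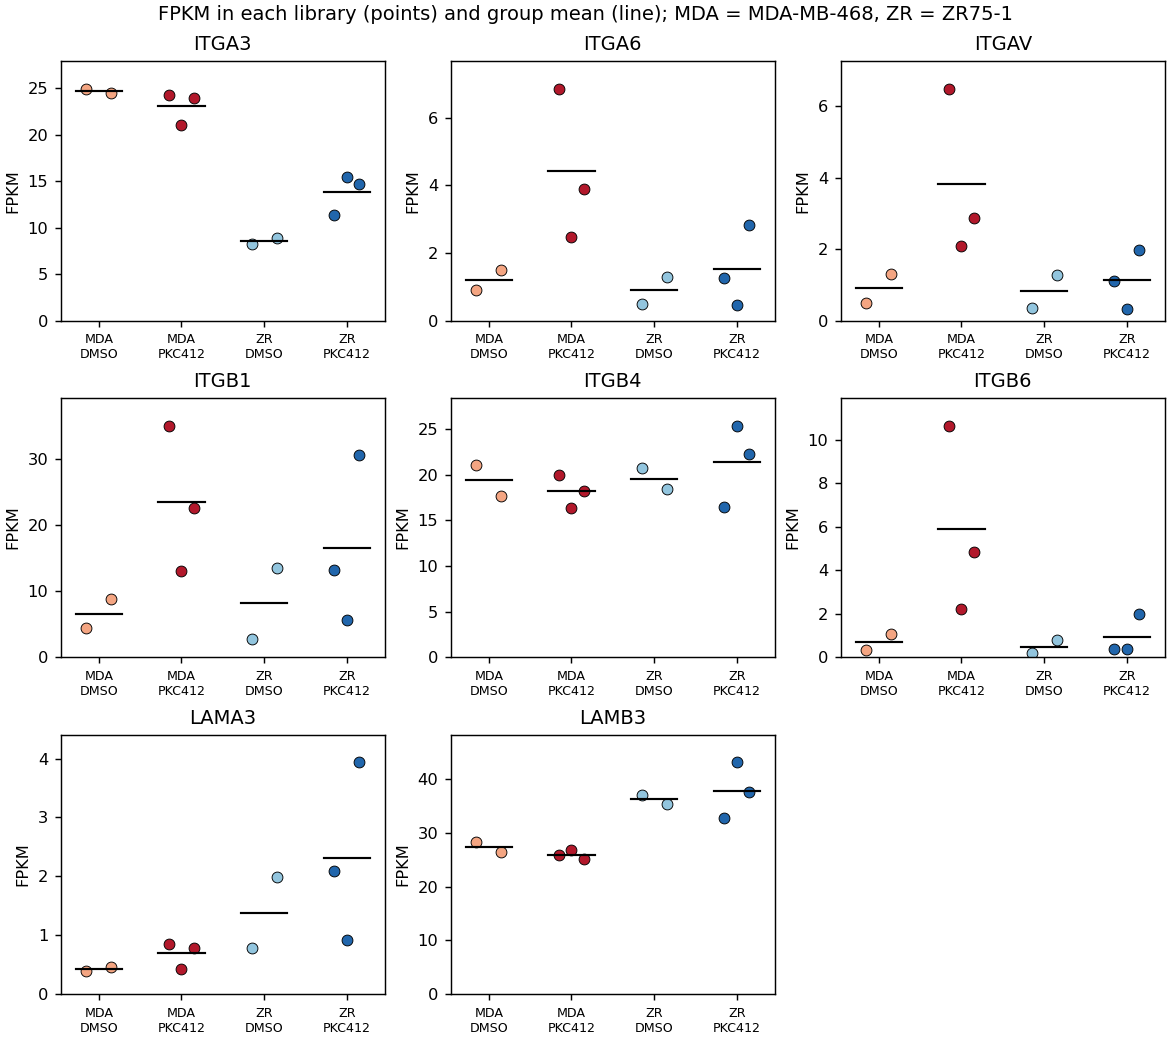
FPKM (linear axis from 0) of the 8 tested members in each of the 10 libraries, grouped by line and agent, with a line at each group mean. ITGA3 and LAMB3 separate the lines in every library, while ITGA6, ITGAV, ITGB1 and ITGB6 spread widely within groups, ITGB1 from 5.65 to 30.7 FPKM in ZR75-1 with PKC412.

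In the comparison of the lines in DMSO, 2 of 8 tested members passed the limma test, ITGA3 higher and LAMB3 lower in MDA-MB-468, where 42.4% of all 16071 genes tested did so (26.5% higher and 15.9% lower). In PKC412 the count was 5 of 8, against 58.6% of all genes. Of these, 4 were higher in MDA-MB-468 (ITGA3, ITGA6, ITGAV, ITGB6; background 37.0%) and LAMB3 was lower (background 21.6%). The share of members was below the background in DMSO and near it in PKC412. The members' median log2 difference was 0.032 in DMSO and 0.69 in PKC412, beside 0.11 and 0.19 over all genes. By this test in DMSO, only ITGA3 of the 8 was higher in the basal-like line, and LAMB3 was lower there. The intervals of ITGA6, ITGAV, ITGB1 and ITGB6 in DMSO are too wide to set a direction for these genes. MDA-MB-468 and ZR75-1 samples were fully separate for 3 of 8 members in DMSO (69.6% of all genes) and for 5 of 8 in PKC412 (64.4% of all genes).

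**Figure D2:**
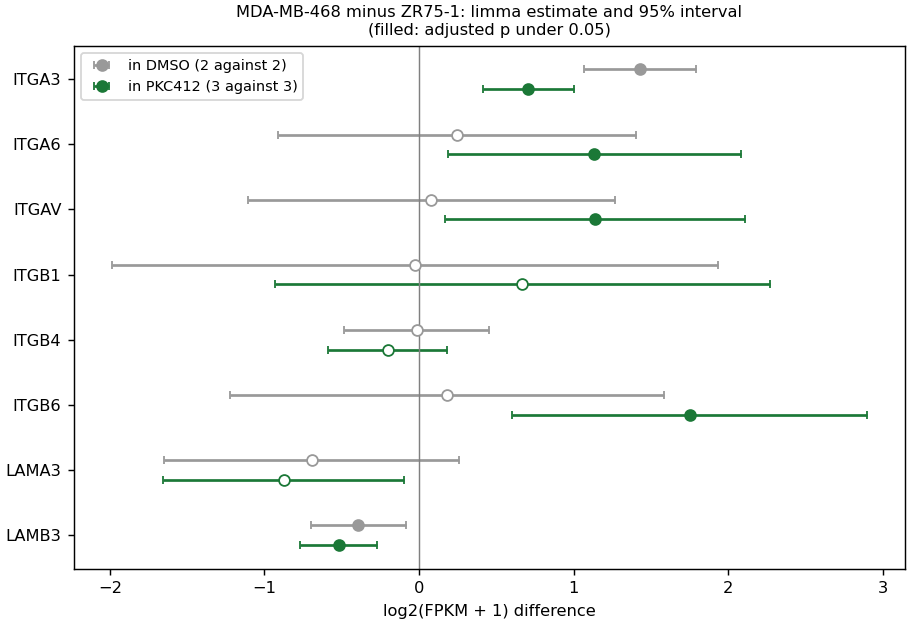
Difference between MDA-MB-468 and ZR75-1 in log2(FPKM + 1) for each gene, in DMSO and in PKC412, with 95% intervals from limma and filled points where the adjusted p is under 0.05. ITGA3 lies to the right and LAMB3 to the left of 0 under both agents, and the interval of ITGB1 in DMSO reaches from -1.99 to 1.93.

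In MDA-MB-468 with DMSO the order of the levels in FPKM, not adjusted for GC content, ran LAMB3 (27.4 ± 1.34 FPKM, SD, n = 2), ITGA3 (24.7 ± 0.288 FPKM), ITGB4 (19.4 ± 2.39 FPKM), ITGB1 (6.58 ± 3.12 FPKM), ITGA6 (1.21 ± 0.423 FPKM), ITGAV (0.896 ± 0.578 FPKM), ITGB6 (0.694 ± 0.499 FPKM) and LAMA3 (0.424 ± 0.0548 FPKM). Samples of each neighbouring pair from ITGA6 to LAMA3 overlapped, so that order among these 4 is not settled. In ZR75-1 with DMSO, LAMB3 (36.3 ± 1.24 FPKM, SD, n = 2) and ITGB4 (19.6 ± 1.63 FPKM) led, and ITGA3 and ITGB1 followed with overlapping samples. LAMA3, ITGA6, ITGAV and ITGB6 came last there, again with overlapping samples between neighbours. With PKC412, ITGB1 (23.6 ± 11.02 FPKM, SD, n = 3) overlapped LAMB3, ITGA3 and ITGB4 in MDA-MB-468, and ITGB1 (16.5 ± 12.8 FPKM) overlapped ITGB4 and ITGA3 in ZR75-1.

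The second question was whether PKC412 changed these genes in either line. In MDA-MB-468 none of the 8 tested members passed the limma test, against 1.26% of all genes. Unadjusted limma p-values were under 0.05 for 3 of them, ITGA6, ITGAV and ITGB6, and for 16.4% of all genes. In the same line ITGB6 had the largest estimate among the members, 1.86 (SE 0.56, 95% interval 0.58 to 3.15, limma adjusted p = 0.196), with all 3 PKC412 samples above both DMSO samples. Its mean was 0.694 ± 0.499 FPKM (SD, n = 2) with DMSO and 5.91 ± 4.32 FPKM (SD, n = 3) with PKC412, an 8.52-fold ratio. The estimates were 1.66 for ITGB1 (SE 0.78, limma adjusted p = 0.314), 1.27 for ITGAV (SE 0.47, limma adjusted p = 0.265) and 1.22 for ITGA6 (SE 0.46, limma adjusted p = 0.267). In these genes too every PKC412 sample lay above both DMSO samples, as it did in 39.6% of all genes. For ITGA3 every PKC412 sample lay below both DMSO samples, which made 5 of 8 members without overlap, against 55.9% of all genes. When means were divided, ITGB6, ITGAV, ITGA6 and ITGB1 had ratios of 3 or more, so 4 members passed that limit, where 7.21% of 14955 genes passed in either direction and 6.14% in this one. With 1 FPKM added to both means the count was 2 members, against 1.58% of all genes.

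The GC-rich members and the laminin chains had small estimates for PKC412 in MDA-MB-468. They were -0.10 for ITGA3 (95% interval -0.43 to 0.23), -0.086 for ITGB4 (-0.51 to 0.34), -0.072 for LAMB3 (-0.35 to 0.21) and 0.24 for LAMA3 (-0.63 to 1.11). The intervals of ITGA3, ITGB4 and LAMB3 reach no further than -0.51 and 0.34 log2 units. Over all genes the median was 0.11.

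In ZR75-1 none of the 8 tested members passed the limma test for PKC412, against 0.946% of all genes. An unadjusted p under 0.05 was reached by 1 of them, ITGA3, and by 11.2% of all genes. ITGA3 went from 8.57 ± 0.412 FPKM (SD, n = 2) with DMSO to 13.8 ± 2.18 FPKM (SD, n = 3) with PKC412, a 1.61-fold ratio, with no overlap of the samples. Its log2 difference was 0.62 (SE 0.14, limma adjusted p = 0.136). After the adjustment for GC and length it was 0.46 with an adjusted p of 0.0442, the 1 call among 20 alternatives, whose adjusted p ranged from 0.0442 to 1. The other estimates lay between 0.053 for LAMB3 and 0.96 for ITGB1 (SE 0.78, limma adjusted p = 0.701), and their samples overlapped between the agents. The count without overlap was thus 1 of 8, against 21.7% of all genes. No member passed a ratio of 3, where 4.09% of 14587 genes did.

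Whether PKC412 acted differently in the 2 lines was examined as an interaction. None of the 8 members passed, against 0.268% of all genes, and only ITGA3 had an unadjusted limma p under 0.05, against 7.05% of all genes. For ITGA3 the effect in MDA-MB-468 minus that in ZR75-1 was -0.72 (SE 0.20, limma adjusted p = 0.361). For ITGB6 it was 1.57 (SE 0.79, 95% interval -0.25 to 3.38, limma adjusted p = 0.817). A response of ITGB6 in MDA-MB-468 alone was thus not shown.

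**Figure D3:**
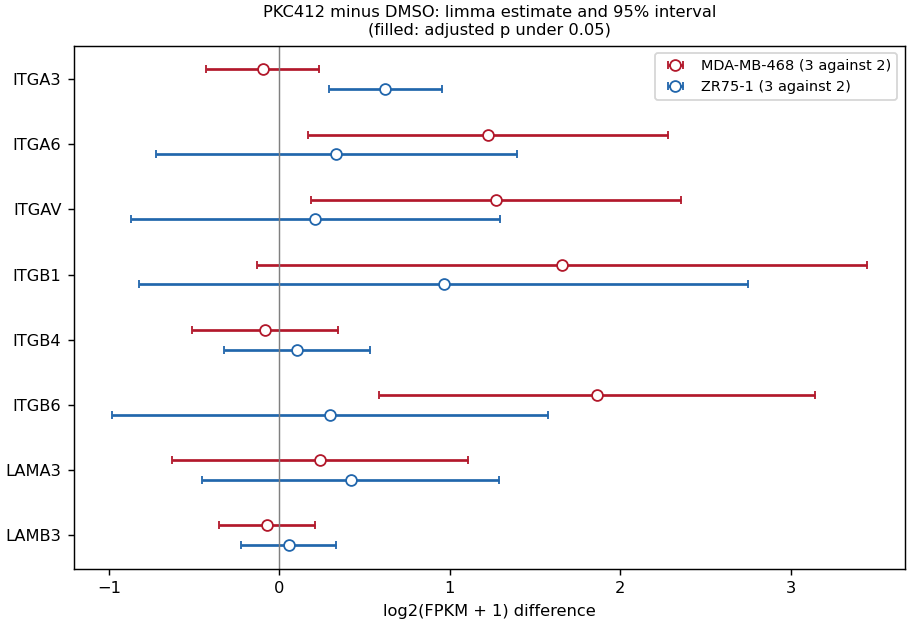
Difference between PKC412 and DMSO in log2(FPKM + 1), drawn for each line with its 95% interval from limma. No point is filled, since no adjusted p was under 0.05, and the intervals of ITGA6, ITGAV and ITGB6 in MDA-MB-468 and of ITGA3 in ZR75-1 exclude 0 before adjustment over all genes.

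The AT-rich members moved together with the GC slope of the libraries, in both lines. In MDA-MB-468, ordered from the lowest to the highest slope, ITGB1 read 35.1, 22.5, 13.1, 8.78 and 4.37 FPKM, so each library with a lower slope had the higher level in all 10 pairs of samples. ITGB6, ITGA6 and ITGAV gave the same 10 of 10 pairs, and the highest sample exceeded the lowest 31.2-fold for ITGB6, 13.3-fold for ITGAV, 8.02-fold for ITGB1 and 7.53-fold for ITGA6. LAMA3 gave 9 of 10 pairs. The GC-rich ITGA3, ITGB4 and LAMB3 gave 3, 5 and 2 of 10 pairs, and their highest sample exceeded the lowest by no more than 1.29-fold. Among all genes of the line with GC below 45%, 59.1% had all 10 pairs in this order and the median ratio of highest to lowest was 2.45. The 4 AT-rich members thus followed a pattern most genes of their composition shared, with wider spreads.

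In ZR75-1 the slope crossed the agents, since DMSO replicate 2 had a lower slope than PKC412 replicates 1 and 2. ITGA6 and ITGAV again gave 10 of 10 pairs, ITGB1 gave 9, and ITGB6 and LAMA3 gave 8. DMSO replicate 2 held 13.6 FPKM of ITGB1 against 5.65 FPKM in PKC412 replicate 2, whose slope was 0.34. ITGA3, ITGB4 and LAMB3 gave 5, 4 and 4 of 10 pairs. Among all genes with GC below 45%, 26.8% had all 10 pairs in order and 85.3% had 8 or more.

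**Figure D4:**
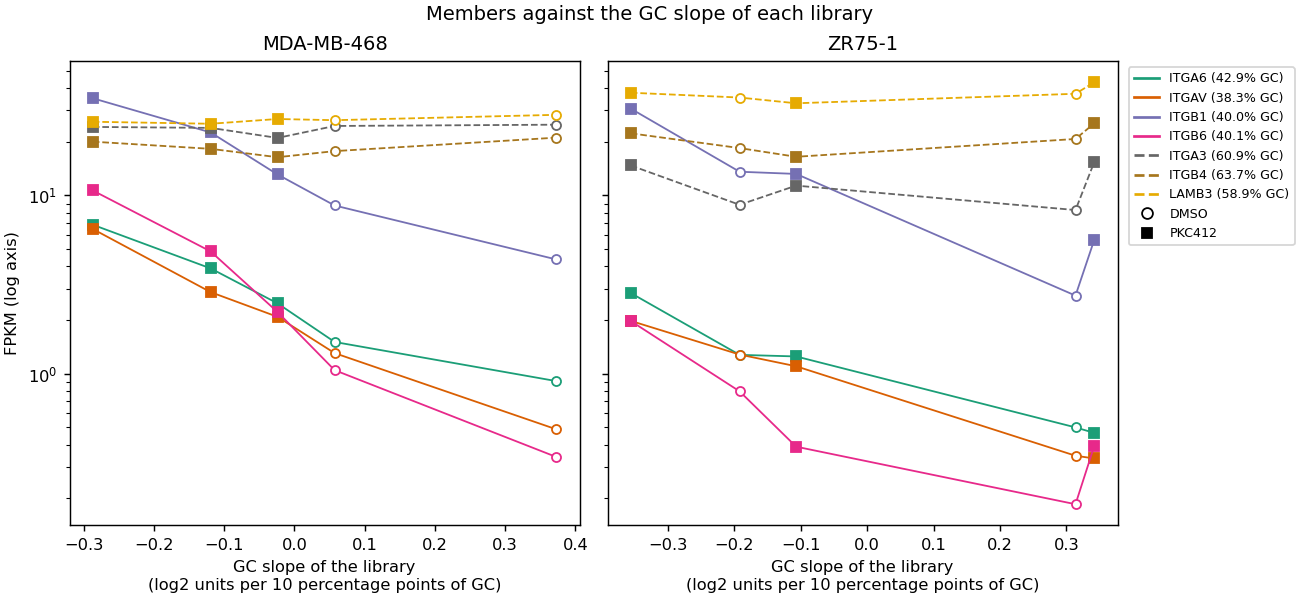
FPKM (log axis) of 4 AT-rich members (solid lines) and 3 GC-rich members (dashed lines) in each library against its GC slope, in log2 units per 10 percentage points of GC, with DMSO as open circles and PKC412 as filled squares. In MDA-MB-468 the AT-rich members step down from left to right while ITGA3, ITGB4 and LAMB3 stay nearly level.

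The estimates for PKC412 ran with base composition in MDA-MB-468, and hardly so in ZR75-1. In ZR75-1 the median of all genes was 0.13 below 40% GC, 0.13 from 50 to 55% and -0.019 at 60% and above. There the GC-rich ITGA3, at 0.62, lay above the AT-rich ITGA6, ITGB6 and ITGAV (0.33, 0.30 and 0.21) and below ITGB1 (0.96). In MDA-MB-468 the median log2 difference of all genes was 0.57 below 40% GC, 0.44 from 40 to 45%, 0.10 from 50 to 55% and -0.15 at 60% and above. The estimates of ITGAV, ITGB1, ITGB6 and ITGA6 lay above the medians of their classes, and those of ITGA3 and ITGB4, at -0.10 and -0.086, lay between the median of the class at 60% and above and 0. After adjustment for GC and length the estimates in MDA-MB-468 were 1.46 for ITGB6 (limma adjusted p = 0.0788), 1.03 for ITGB1 (0.202), 0.81 for ITGAV (0.121) and 0.80 for ITGA6 (0.122), still above 0 and below the threshold. Over all alternatives the adjusted p of ITGB6 ran from 0.0726 to 0.925. The part of the GC slope in these differences was not tested, and slope and agent cannot be told apart in MDA-MB-468. Between the lines in PKC412, the values under this setting were 1.60 for ITGB6, 1.06 for ITGA6 and 1.015 for ITGAV. Their limma adjusted p was 0.00263, 0.00225 and 0.00294, where 69.0% of all genes were called. The adjustment was made within each line, so a GC trend that differs between the lines stays in these values.

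**Figure D5:**
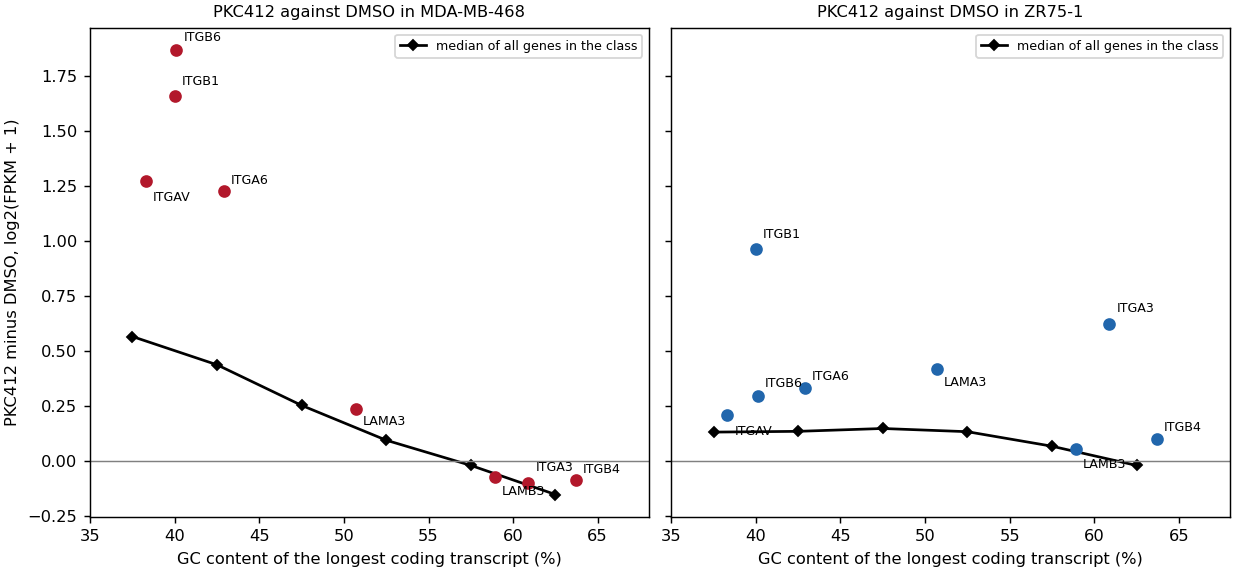
PKC412 minus DMSO in log2(FPKM + 1) against transcript GC content for the members (circles), with the median of all genes in 6 GC classes (diamonds, the outer classes holding all genes below 40% and at 60% and above). In MDA-MB-468 the median runs from 0.57 to -0.15 and the 4 AT-rich members lie above it, and in ZR75-1 it runs from 0.13 to -0.019.

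Ratios between members of like GC content were also taken within each library. The ratio of ITGA6 to ITGB1 lay between 0.172 and 0.208 in all 5 MDA-MB-468 samples. In ZR75-1 it lay between 0.0824 and 0.0947 in 4 samples and at 0.182 in DMSO replicate 1. The ratio of ITGB6 to ITGB1 in MDA-MB-468 was 0.0780 and 0.119 with DMSO and 0.304, 0.169 and 0.215 with PKC412. Its PKC412 values all lay above its DMSO values there, while in ZR75-1 it was 0.0676 and 0.0587 with DMSO and 0.0295, 0.0698 and 0.0644 with PKC412. The ratio of ITGB6 to its partner ITGAV was 0.699 and 0.802 with DMSO and 1.64, 1.06 and 1.69 with PKC412 in MDA-MB-468. In ZR75-1 it was 0.535 and 0.622 with DMSO and 0.354, 1.18 and 0.998 with PKC412, so 2 of 3 PKC412 values lay above both DMSO values there too. In MDA-MB-468 the ratio of ITGB6 to ITGB1 also followed the order of the GC slopes, with 0.304 at the lowest slope and 0.0780 at the highest. These ratios are descriptions with no test.

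The measured FPKM of partner chains differed. ITGA6 stood at 0.0431 to 0.342 of the level of ITGB4 in MDA-MB-468 and at 0.0183 to 0.127 in ZR75-1. In both lines the lowest of these ratios came from the library with the highest GC slope and the highest from that with the lowest slope, so the size of a ratio between chains that differ in GC content is not settled. LAMA3 stood at 0.0136 to 0.0328 of LAMB3 in MDA-MB-468 and at 0.0209 to 0.104 in ZR75-1. Among all integrin alpha chains summed, ITGA3 made up 52.7% to 68.7% of the FPKM in MDA-MB-468 samples and 36.5% to 56.7% in ZR75-1 samples. Of the beta chains, ITGB4 held 15.9% to 27.8% in MDA-MB-468 and 26.8% to 50.3% in ZR75-1, and ITGB1 held 5.76% to 27.8% and 6.65% to 36.8%. ITGB5, another partner of αv, held the largest share of beta chains in each MDA-MB-468 sample, 43.1% to 60.7%. In ZR75-1 it held 33.1% to 42.7%, a range that overlapped that of ITGB4. LAMB3 made up 30.6% to 36.1% of all laminin RNA in MDA-MB-468 and 35.4% to 44.7% in ZR75-1. These shares also mix genes of different GC content.

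Other genes of the adhesion system were compared between the lines in DMSO, where the share called over all genes was 42.4%. This share was 33.6% without DMSO replicate 1 of MDA-MB-468, 31.1% without DMSO replicate 2 of that line, 35.3% without DMSO replicate 1 of ZR75-1 and 33.2% without the 3 libraries of high GC slope. All 7 tested further alpha chains were called, 3 higher and 4 lower in MDA-MB-468. The count was 4 of 7 without DMSO replicate 1 of either line and without the 3 libraries. ITGA5, the fibronectin receptor chain, was lower there, at 0.638 ± 0.0339 FPKM against 3.95 ± 0.189 FPKM in ZR75-1 (SD, n = 2 each, limma adjusted p = 0.000114). ITGAL, a leukocyte integrin chain, was also lower, at 0.0933 ± 0.0063 FPKM against 3.38 ± 0.356 FPKM, and ITGAE, which binds E-cadherin, was higher, at 8.73 ± 0.2996 FPKM against 4.19 ± 0.289 FPKM. Of 4 tested further beta chains, 3 were called and all 3 were higher in MDA-MB-468. ITGB5 measured 47.9 ± 3.62 FPKM against 18.2 ± 1.89 FPKM, and ITGB2, the leukocyte beta chain, 3.88 ± 0.0297 FPKM against 0.557 ± 0.0113 FPKM. The calls of ITGAL, ITGA5, ITGB5 and ITGB2 were kept in all 19 alternatives. That of ITGAE was kept in 12 of 19 (adjusted p 0.0129 to 0.12) and was lost without either DMSO library of either line.

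Of 7 tested further laminin chains, 3 were higher and 1 lower in MDA-MB-468. These 4 calls, beside 42.4% of all genes, were 2 without DMSO replicate 2 of MDA-MB-468, without DMSO replicate 1 of ZR75-1 and without the 3 libraries of high GC slope. LAMA4, an alpha chain of vessel and muscle basement membranes, measured 16.3 ± 4.84 FPKM in MDA-MB-468 and was listed at or near 0 in ZR75-1, at no more than 0.0448 FPKM in any sample. LAMB1 was higher in MDA-MB-468, at 5.19 ± 0.815 FPKM against 1.11 ± 0.359 FPKM. LAMB2 was lower, at 19.2 ± 1.78 FPKM against 28.1 ± 3.95 FPKM, the same direction as LAMB3. The calls of LAMA4 and LAMB1 were kept in all 19 alternatives, and that of LAMB2 in 9 of 19 (adjusted p 0.00662 to 0.193), 3 of them among the 10 that left out 1 library (PKC412 replicates 1 and 2 and DMSO replicate 2 of ZR75-1).

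Of 6 hemidesmosome genes, 3 were higher and 2 lower in MDA-MB-468, where 42.4% of all genes were called. The 5 calls fell to 3 without DMSO replicate 2 of MDA-MB-468 and to 3 without the 3 libraries of high GC slope. The keratin genes KRT5 and KRT14, whose filaments hemidesmosomes hold, measured 969 ± 71.2 FPKM and 127 ± 16.5 FPKM in MDA-MB-468 against 0.150 ± 0.194 FPKM and 0.0290 ± 0.0370 FPKM in ZR75-1. Both are also among the basal markers used above for the identity of the lines, so their calls repeat that comparison. CD151, a tetraspanin that binds laminin-binding integrins, was higher, at 267 ± 39.2 FPKM against 122 ± 12.3 FPKM. PLEC, which links ITGB4 to keratins, was lower, at 13.3 ± 2.03 FPKM against 22.8 ± 4.85 FPKM (limma adjusted p = 0.0225). The call of PLEC was lost without DMSO replicate 2 of MDA-MB-468, without DMSO replicate 1 of ZR75-1 and without the 3 libraries of high GC slope, with adjusted p up to 0.14.

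Of 29 tested focal adhesion genes, 13 were higher and 7 lower in MDA-MB-468, against 42.4% of all genes called. Their 20 calls fell to 13 without DMSO replicate 2 of MDA-MB-468 and to 11 without the 3 libraries of high GC slope. FLNA, an actin cross-linker that binds beta chains, measured 193 ± 2.17 FPKM against 24.2 ± 0.0382 FPKM. CAV1, the coat protein of caveolae, measured 42.9 ± 11.2 FPKM against 0.110 ± 0.0296 FPKM. NEDD9, an adhesion scaffold, was higher at 8.08 ± 0.996 FPKM against 0.160 ± 0.0252 FPKM, and PARVB, which joins the integrin-linked kinase complex, was lower at 0.502 ± 0.134 FPKM against 13.3 ± 1.824 FPKM.

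Of 14 tested matrix ligands, 7 were higher and 2 lower in MDA-MB-468, again beside 42.4% of all genes. Without DMSO replicate 2 of MDA-MB-468 the 9 calls fell to 5, and without DMSO replicate 1 of ZR75-1 to 6. TGFB1, whose latent form is activated by αvβ6, measured 30.7 ± 3.01 FPKM against 8.84 ± 0.581 FPKM. TGFB2 was higher at 6.05 ± 2.02 FPKM against 0.169 ± 0.0410 FPKM, and TGFB3 was lower at 0.220 ± 0.0137 FPKM against 6.66 ± 1.56 FPKM. AGRN, a basement membrane proteoglycan, was higher at 56.3 ± 6.58 FPKM against 17.8 ± 0.909 FPKM. The median log2 difference was -0.29 for the alpha chains, 1.005 for the beta chains, 0.18 for the laminins, 0.89 for the hemidesmosome genes, 0.30 for the focal adhesion genes and 0.35 for the matrix ligands, beside 0.11 for all genes. The hemidesmosome genes include the basal markers KRT5 and KRT14.

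With PKC412 none of the 67 tested genes of these lists passed the limma test in MDA-MB-468, against 1.26% of all genes. Of the 67, 12 had an unadjusted p under 0.05, as did 16.4% of all genes. After GC adjustment 7 of 67 passed, against 3.60% of all genes. Most often called over the alternatives was ITGA5, named here after its values were seen, with means of 0.638 FPKM with DMSO and 1.79 FPKM with PKC412 (log2 difference 0.77, SE 0.15, limma adjusted p = 0.0602). It passed in 6 of 20 alternatives, with adjusted p of 0.00480 to 0.0485 in these. TGFB2, at 6.05 FPKM with DMSO and 2.34 FPKM with PKC412 (log2 difference -1.06, limma adjusted p = 0.0582), passed after median-ratio rescaling and after GC adjustment, with adjusted p of 0.0179 and 2.43e-05. KRT14, LAMA4, LIMS2, THBS1 and TLN2 passed after GC adjustment only. In ZR75-1 1 of the 67 passed, against 0.946% of all genes. It was COL1A1, a collagen chain that integrins of the β1 family bind as assembled collagen. It is also among the markers of other cell types used above, and the source of its RNA was not tested. COL1A1 rose from 2.50 ± 0.356 FPKM (SD, n = 2) to 8.94 ± 2.21 FPKM (SD, n = 3), a log2 difference of 1.49 (SE 0.20, limma adjusted p = 0.0182). The call of COL1A1 was kept in 10 of 20 alternatives (adjusted p 0.00457 to 1), and with 1 library left out it was kept only without PKC412 replicate 2 of MDA-MB-468 and PKC412 replicate 2 or 3 of ZR75-1. An unadjusted p under 0.05 was reached in ZR75-1 by 7 of 67 and by 11.2% of all genes. No gene of these lists passed the interaction test, against 0.268% of all genes. In it 8 of 67 had an unadjusted limma p under 0.05, as did 7.05% of all genes. After GC adjustment 2 of 67 passed it, TGFB2 and ITGA5, against 1.30% of all genes.

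The genes whose levels followed the members most closely were ranked by Pearson correlation. After subtraction of each line's mean, the genes most correlated with ITGB1 were CANX (r = 0.999, 41.6% GC), PPP1R15B (0.998, 43.4% GC) and ZMPSTE24 (0.998, 38.0% GC). Those most like ITGB6 were WWTR1 (r = 0.993, 40.9% GC), KLF5 (0.993, 47.0% GC) and ZNF519 (0.992, 35.7% GC). For LAMB3 they included SPINT1 (r = 0.921, 60.4% GC) and HSD11B2 (0.911, 63.2% GC). For ITGB4 the first was GIT1 (r = 0.921, 62.9% GC). For ITGA3 over all samples, without that subtraction, MANEAL led with r = 0.982 and 61.1% GC. These are correlations of log2(FPKM + 1) over 10 libraries among 12343 genes, and the libraries share their GC slopes, so they are descriptions with no test.

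RefSeq promoters (GRCh38.p14, 250 bases before to 50 after a start) were found for 7 of 9 members, 12 in all. The AP-1 motif TGANTCA, searched on both strands, was in 1 promoter of LAMA3 and 1 of the 3 of LAMB3, and in 7.71% of all 35116 promoters. The TEAD motif GGAATG, or CATTCC on the other strand, was in 1 of the 2 of ITGB1 and in 14.0% of all promoters. These are matches of letters in these windows only.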

How the data were processed

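RNA from 10 samples was sequenced (Illumina TruSeq libraries), and the authors deposited FPKM per gene symbol, made with an in-house pipeline, 1 file per sample. The submitters' processing notes name CASAVA 1.82, TopHat2 and hg19. The annotation, filters and strand setting are not given in the sources used here. Groups came from the sample labels, and the members and gene lists were chosen with earlier results of these data known. Some values lie as low as 2.194e-318 FPKM. No read counts were available, so depth is unknown and precision rests on the spread between samples.

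Differences were tested with limma 3.58.1 (R 4.3.3) on log2(FPKM + 1), a scale that understates changes of low genes, with 1 mean per group and eBayes with a trend. The 16071 genes with a group mean above 0.1 FPKM were tested and p-values were adjusted by Benjamini-Hochberg at 0.05. The lines were compared under each agent, PKC412 with DMSO in each line, and the effects between lines. Groups this small cannot reach 0.05 in an exact permutation test, so none was run. Ratios of mean FPKM at a limit of 3 were also counted. Transcript GC and coordinates came from GENCODE 29 (GRCh38, not the build of the files), matched by symbol for 88.1% of genes. GC slopes used genes above 1 FPKM. For the adjustment, log2 values were fitted per sample with polynomials of degree 3 in GC and log length. Alternatives were pseudocounts 0.1 and 0.5, other limits on low values, no trend, rescaling, GC adjustment, a replicate block, 1 line alone and leaving out libraries. Named list genes had a mean above 1 FPKM and were the 4 per list with the largest called line difference, or called for PKC412 (up to 4), with the 3 best correlated genes per member. Some of the planned items are not reported here. The fits were also run on simulated data, with noise drawn separately for each gene and without GC slopes. That run covers neither the shifts shared by AT-rich genes nor genes of low FPKM.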

Additional observations from a re-analysis of the deposited data

Results flagged for a closer look

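ITGA3 was set apart because all 3 PKC412 samples lay on opposite sides of the DMSO samples in the 2 lines, below both in MDA-MB-468 (21.0 to 24.2 against 24.5 and 24.9 FPKM) and above both in ZR75-1 (11.4 to 15.4 against 8.28 and 8.86 FPKM). ITGA3 was picked by this same pattern, and the share of all genes that show it is not given here. Samples of the agents without overlap, whichever the direction, were found for 55.9% of all genes of the basal-like line. The share was 21.7% for the luminal line. The gap was narrow for MDA-MB-468, with 24.2 FPKM as the highest PKC412 value and 24.5 FPKM as the lowest DMSO value. The difference between the 2 effects was -0.72 on the log2(FPKM + 1) scale (SE 0.20). Its limma adjusted p was 0.361, so the difference did not pass the interaction test, and over the alternatives the adjusted p ran from 0.104 to 1.00. The PKC412 estimate for MDA-MB-468 was -0.10, with a 95% interval of -0.43 to 0.23. That for ZR75-1 was 0.62, with a 95% interval of 0.29 to 0.95 before adjustment over all genes. Its limma adjusted p was 0.136, so it did not pass the test.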

How the results depend on the processing

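The depth is unknown, each group has 2 or 3 samples, and intervals are wide for ITGB1, ITGB6, ITGA6 and ITGAV. Of 776 log2 values of the members under alternatives, 695 kept their direction and side of the threshold, 40 lost and 7 gained a call and 34 changed sign, all of them values not called as reported. The cause of the shifts below was not tested. Members called between the lines in DMSO (2) were 1 under median-ratio rescaling, with a replicate block and without the 3 libraries of high GC slope, the last chosen after seeing the data, and 1 to 2 when 1 library was left out. Members called in PKC412 (5, against 58.6% of all genes) were 3 with no limit on low FPKM (47.9%) and with the block (53.65%). They were 2 to 5 with 1 PKC412 library left out (49.3% to 61.7%). In ZR75-1 the count for PKC412 (0, against 0.946% of all genes) was 1 after GC adjustment (2.84%). With 1 FPKM added, members past a ratio of 3 in MDA-MB-468 (4, against 7.21% of all genes) were 2 (1.58%).

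Between the lines in DMSO, ITGB1 (-0.027) was 0.016 with pseudocount 0.1 and 0.24 after GC adjustment. Leaving out 1 library gave ranges of -0.057 to 0.54 for ITGA6, -0.30 to 0.46 for ITGAV, -1.01 to 0.95 for ITGB1, -0.13 to 0.10 for ITGB4 and -0.12 to 0.49 for ITGB6. For PKC412 in MDA-MB-468, ITGB4 was 0.034 without the 3 libraries and ranged from -0.21 to 0.034 with 1 left out. For PKC412 in ZR75-1 the replicate block, which rests on numbers not shown to pair samples, gave -0.025 for ITGA6, -0.066 for ITGAV and -0.068 for ITGB6. There ITGB4 was -0.022 after rescaling and -0.0096 after GC adjustment, and LAMB3 was -0.074 after rescaling, -0.14 after GC adjustment and -0.0084 without the 3 libraries. With 1 library left out there, ITGA6 ranged from -0.025 to 0.67, ITGAV from -0.17 to 0.59, ITGB1 from -0.017 to 1.95, ITGB4 from -0.026 to 0.27, ITGB6 from -0.068 to 0.60 and LAMB3 from -0.042 to 0.15. In the interaction, LAMA3 was 0.12 with the block and LAMB3 0.0097 after GC adjustment, and leaving out 1 library gave -0.29 to 1.68 for ITGB1 and -0.56 to 0.20 for LAMA3. A fit left with 1 sample in a group takes its spread from the other groups.

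GC adjustment moved the share of all genes called for PKC412 from 1.26% to 3.60% in MDA-MB-468, from 0.946% to 2.84% in ZR75-1 and from 0.268% to 1.30% in the interaction. In MDA-MB-468 it was 0% with the block, 0.404% and 0.423% without DMSO replicate 1 or 2 of that line, 0.542% in that line alone and 0.310% without the 3 libraries, and in ZR75-1 0% with the block and 0.0823% in that line alone.

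Same-numbered DMSO and PKC412 samples of a line did not deviate together over 7685 genes (r from -0.69 to -0.61 in MDA-MB-468 and from -0.63 to 0.12 in ZR75-1). Across the lines r was 0.846 for both numbers in DMSO, where a group of 2 gives both the same r, and from -0.25 to 0.54 in PKC412. Not every pair exceeded 0.1, so the numbers were not taken to pair samples. In DMSO, ITGA3, ITGA6, ITGAV and ITGB6 were higher in MDA-MB-468 than in the same-numbered ZR75-1 sample for both numbers. LAMA3 and LAMB3 were lower for both, and ITGB1 and ITGB4 changed direction between the numbers. ITGAV was nearly equal for number 2, at 1.305 against 1.281 FPKM. The share of all genes that keep their direction in both pairs is not given here. With the replicate block the limma adjusted p of ITGA6, ITGAV and ITGB6 was 0.766, 0.943 and 0.869. That block gives a number the same offset under both agents, so it does not test these DMSO pairs.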
